A study of Mus musculus with 32 samples.

Results

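The genes described here are 10 mouse genes of brown fat heat production and mitochondrial uncoupling: Ucp1, Ucp2, Ucp3, Dio2, Ppargc1a, Ppargc1b, Prdm16, Elovl3, Zic1 and Kcnk3. They were chosen by name for their known roles, each matched 1 row of the expression table, and they are 10 of its 54532 genes. The study sequenced RNA from 4 tissues of wild-type C57/Bl6j mice. These were brown adipose tissue (BAT), the inguinal (iWAT) and epididymal (eWAT) white depots, and liver. In each tissue 4 libraries came from mice given auranofin, a gold-containing anti-rheumatic drug, at 1 mg per kg of body weight in 3 doses a week over 4 weeks, and 4 came from vehicle mice. All groups, controls included, had first eaten a high-fat diet (60% fat) for 12 weeks, and the age of the mice is not given in the sources used here. How many animals stand behind a library is not given, so p-values measure the spread between libraries, which may be technical.

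Brown adipocytes make heat by letting protons flow back across the inner mitochondrial membrane through the protein encoded by Ucp1, without making ATP. Noradrenaline released by sympathetic nerves acts on beta-adrenergic receptors and, through cAMP, raises lipolysis and the transcription of Ucp1, Dio2 and Ppargc1a. White adipocytes store fat and carry few mitochondria, although in some depots, the inguinal one above all, cold can induce beige cells that express Ucp1.

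The promoters of the uncoupling proteins and of Dio2 are shown because the uncoupling proteins differed from each other in tissue pattern and Dio2 gave opposed values in the depots, as described further on. RefSeq promoter entries on build GRCm38.p6 were found for 7 of the 10 genes, and Ppargc1b, Elovl3 and Kcnk3 were not matched. Each line gives, 5′ to 3′ on the strand of the gene, the 250 bases before the RefSeq start, with the core of the cAMP response element (TGACG or its reverse complement CGTCA) and the nuclear receptor site AGGTCA in capitals.
Ucp1 (chr8:83290098-83290347, plus strand): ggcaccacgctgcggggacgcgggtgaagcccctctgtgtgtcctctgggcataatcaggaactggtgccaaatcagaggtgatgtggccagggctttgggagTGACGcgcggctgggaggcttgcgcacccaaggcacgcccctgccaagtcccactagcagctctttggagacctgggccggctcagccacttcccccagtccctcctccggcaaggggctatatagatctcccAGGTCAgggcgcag
Ucp2 (chr7:100493108-100493357, plus strand): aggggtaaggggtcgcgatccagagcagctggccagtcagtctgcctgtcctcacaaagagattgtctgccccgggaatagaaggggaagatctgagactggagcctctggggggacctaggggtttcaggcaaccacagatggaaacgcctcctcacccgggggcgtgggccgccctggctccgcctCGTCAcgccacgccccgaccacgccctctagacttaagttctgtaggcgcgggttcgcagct
Ucp3 (chr7:100472741-100472990, plus strand): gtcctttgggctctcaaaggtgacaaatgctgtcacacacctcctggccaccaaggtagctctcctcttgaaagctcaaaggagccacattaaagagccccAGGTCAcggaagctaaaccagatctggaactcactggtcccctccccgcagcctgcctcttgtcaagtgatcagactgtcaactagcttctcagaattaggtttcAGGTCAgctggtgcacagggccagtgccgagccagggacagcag
Dio2 (chr12:90739039-90739288, minus strand): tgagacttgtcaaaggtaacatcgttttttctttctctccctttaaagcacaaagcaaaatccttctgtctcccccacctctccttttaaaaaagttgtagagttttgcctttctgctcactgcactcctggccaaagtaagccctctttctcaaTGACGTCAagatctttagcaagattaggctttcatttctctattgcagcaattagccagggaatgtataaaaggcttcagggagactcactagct
The full palindrome TGACGTCA lay in the Dio2 window, its first base 95 bases before the start, and in 1.55% of the 32851 RefSeq promoters searched. Its core, searched on both strands and counted within the palindrome too, began 147 bases before the start of Ucp1, 62 before Ucp2, 95 before Dio2 and 49 before Ppargc1a, and was in 17.8% of promoters. AGGTCA, searched on both strands as AGGTCA and TGACCT, lay 14 bases before the start of Ucp1 and 149 and 44 bases before that of Ucp3, and was in 14.0% of promoters. TATAAA, searched with its complement TTTATA, lay 30 bases before the start of Dio2, in lower case above, and was in 12.4% of promoters. These are matches of letters within this window. The RefSeq starts can differ from the bounds of the counted genes. The Dio2 window, from 90739039, did not adjoin the counted gene, which ended at 90738438. The Ucp2 window, to 100493357, ran into the counted gene, which began at 100493337.

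Ucp3 and Ucp2 are neighbours on chromosome 7, the end of Ucp3 (100472990 to 100486432 on mm10) lying 6904 bases before the start of Ucp2 (100493337 to 100502020). Ucp1 lies on chromosome 8 (83290352 to 83298452). Dio2 lies on chromosome 12 (90724552 to 90738438), Prdm16 on chromosome 4 (154316125 to 154636873), Elovl3 on chromosome 19 (46131897 to 46135307) and Zic1 on chromosome 9 (91358058 to 91365810). Chromosome 5 carries Ppargc1a (51454250 to 51567726) and Kcnk3 (30588170 to 30625271), and Ppargc1b lies on chromosome 18 (61298136 to 61400431). The library kit kept no strand, so reads of genes that overlap a member on the opposite strand, Dnajb13 beside Ucp2 and Gm9899 beside Kcnk3 among them, could not be parted from it. Dnajb13 averaged 1.2 FPKM in BAT, against 6.72 for iWAT and 6.27 for eWAT, and Gm9899 averaged 7.26 FPKM in BAT. Levels are in FPKM, fragments per kilobase of gene scaled to library size, so they can be set side by side between genes. That library size followed the median ratio of reads between libraries, not the total of reads. Summed FPKM therefore ran from 241571 in eWAT vehicle library 1 to 650120 in liver auranofin library 3, and ratios between tissues rest on this scaling. For Ucp2 the table's gene length, the union of all exons, was 6989 bases against 3988 for the longest principal transcript, so its FPKM is 1.75 times lower than that transcript's length would give, equally in every library.

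The libraries held 13606756 to 19205640 reads in genes. The 6 brown adipocyte markers that are not members (Cidea, Cox7a1, Cox8b, Otop1, Ebf2 and Slc36a2) had a mean log2(FPKM + 1) of 7.92 to 8.52 in the BAT libraries, against 3.16 to 4.54 in iWAT, 2.71 to 4.09 in eWAT and 0.666 to 1.69 in liver. White adipocyte markers stood at 7.63 to 9.46 in the libraries of the white depots, and hepatocyte markers at 11.6 to 12.0 in liver. Markers of neighbouring tissue also varied. Over 12 skeletal muscle genes the mean ran between 0.682 and 6.68 in the auranofin BAT libraries and between 0.662 and 4.99 in the vehicle BAT libraries, and over 10 hepatocyte genes it reached 5.34 in eWAT auranofin library 2 and 4.64 in iWAT vehicle library 1.

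Ucp1 was a transcript of brown fat. It had 3250, 2279, 4145 and 2842 FPKM in the auranofin BAT libraries and 2931, 2656, 2740 and 1697 FPKM in the vehicle BAT libraries. In the vehicle libraries of BAT it ranked 10 among the protein-coding genes. The white depots held traces: 1 to 11 reads per library in auranofin iWAT, 2 to 7 in vehicle iWAT, 0 to 10 in auranofin eWAT and 7 to 15 in vehicle eWAT, against 39056 to 85636 reads in each BAT library. No read fell on Ucp1 in any of the 8 liver libraries. The vehicle mean of BAT, 2506 ± 552 FPKM (SD, n = 4), was 15800 times that of iWAT (0.158 ± 0.0940 FPKM), 8000 times that of eWAT (0.313 ± 0.116 FPKM) and at least 65500-fold higher than liver, taking 3 reads over the liver group as the floor. On the test scale, log2(FPKM + 1), which shrinks changes at low levels, the difference from iWAT was 11.05 (SE 0.14, limma adjusted p = 4.52e-17). Ucp1 reached the mean of 0.5 FPKM needed for testing only through BAT, so that a difference was fixed in advance.

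Ucp2 was highest in eWAT, not in BAT. This uncoupling protein is expressed in many cell types, macrophages among them. Vehicle libraries had 8.64, 13.6, 11.1 and 8.52 FPKM in BAT, 23.1, 38.7, 25.4 and 34.7 FPKM in iWAT, 96.5, 55.4, 66.2 and 70.4 FPKM in eWAT, and 6.76, 8.70, 10.1 and 6.37 FPKM in liver. The eWAT values lay above all the iWAT values, and the iWAT values above all those of BAT and liver, while BAT and liver overlapped. Ucp2 was lower in BAT than in iWAT (log2 difference -1.45, SE 0.21, limma adjusted p = 3.1e-05) and than in eWAT (-2.67, SE 0.21, 3.81e-08), but BAT against liver did not pass (0.35, interval -0.09 to 0.79, adjusted p = 0.156). That last contrast passed when values were put on the TPM scale (0.68, adjusted p = 0.0162) or quantile normalised (0.58, 0.0303). The macrophage marker mean followed a like order in the vehicle libraries, 3.14 to 3.86 in BAT, 3.89 to 4.62 in iWAT, 5.95 to 7.09 in eWAT and 2.79 to 3.22 in liver, and its part in the Ucp2 order was not tested. In bulk tissue, fewer cells of a type and less RNA per cell cannot be told apart.

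Ucp3, known from skeletal muscle and brown fat, stood between these patterns. It had 31.9, 29.2, 23.3 and 44.3 FPKM in the vehicle BAT libraries, 9.28 to 10.5 in iWAT, 3.56 to 7.02 in eWAT and 0.0260 to 0.140 in liver. The ranges of the 4 tissues did not overlap. BAT was 3.19 times iWAT (log2 difference 1.55, SE 0.18, limma adjusted p = 3.85e-06), and eWAT was below iWAT (-0.73, SE 0.18, 0.00382). The eWAT against iWAT call was lost on the TPM scale (-0.36, adjusted p = 0.0929) and in the auranofin libraries (-0.21, 0.657). The muscle marker mean was 0.682, 6.68, 0.715 and 5.52 in auranofin BAT libraries 1 to 4, where Ucp3 stood at 28.4, 34.3, 67.5 and 65.5 FPKM, and 2.31, 0.662, 3.83 and 4.99 in the vehicle BAT libraries. Library 1 had the lowest value of both in the auranofin group and library 4 the highest of both in the vehicle group, while the highest of each fell in different auranofin libraries. The part of muscle transcripts in Ucp3 was not tested.

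The tissue shares of the 10 genes fell into 3 kinds of pattern. Ucp1, Dio2 and Zic1 were almost confined to BAT. Ucp3, Ppargc1a, Ppargc1b, Prdm16 and Kcnk3 had their highest level in BAT with a measurable level in another tissue, and Ucp2 and Elovl3 were highest elsewhere.

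**Figure D1:**
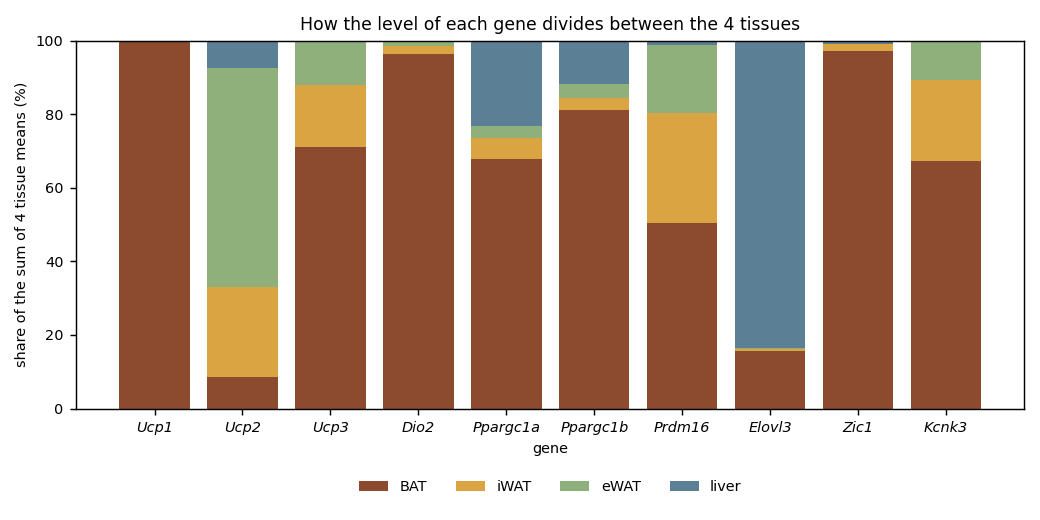
Each bar divides the summed tissue means of 1 gene (8 libraries per tissue, FPKM) between BAT, iWAT, eWAT and liver, in percent on a linear axis. BAT held 96.5% of the sum for Dio2 and 97.1% for Zic1, while eWAT held 59.6% for Ucp2 and liver 83.6% for Elovl3.

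Dio2 encodes the type II deiodinase, which turns thyroxine into active thyroid hormone inside the brown adipocyte. Vehicle BAT libraries had 17.0, 12.7, 16.9 and 9.82 FPKM, vehicle iWAT libraries 0.536 to 0.668 FPKM, and vehicle eWAT libraries 0.193 to 0.810 FPKM. No read fell on it in the 8 liver libraries. BAT was 23.9 times iWAT and 32.7 times eWAT in mean FPKM (log2 differences 3.22 and 3.39, SE 0.15 for each, limma adjusted p = 2.68e-10 and 1.08e-10). Like Ucp1, Dio2 reached the mean of 0.5 FPKM needed for testing only through BAT, so that a difference was fixed in advance. The white depots did not differ past the threshold (eWAT against iWAT -0.17, SE 0.15, adjusted p = 0.388).

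The 2 coactivators of mitochondrial biogenesis, encoded by Ppargc1a and Ppargc1b, were highest in BAT and next highest in liver. Ppargc1a had 7.57, 6.07, 7.06 and 7.36 FPKM in vehicle BAT, 0.531 to 1.00 in iWAT, 0.209 to 0.423 in eWAT and 1.41 to 3.05 in liver. Ppargc1b had 14.9, 10.1, 9.13 and 11.6 FPKM in vehicle BAT, 0.386 to 0.606 in iWAT, 0.388 to 0.714 in eWAT and 1.02 to 2.61 in liver. For both genes all BAT libraries lay above all others, and all liver libraries above those of the white depots. Against liver the log2 difference of BAT was 1.34 (SE 0.14, limma adjusted p = 3.04e-07) for Ppargc1a and 2.17 (SE 0.16, 6.44e-09) for Ppargc1b.

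Prdm16, a regulator of brown fat identity, overlapped between BAT and iWAT and was low in liver. Its product is a transcriptional coregulator that drives brown and beige fate. Vehicle libraries had 3.34, 3.35, 1.59 and 1.62 FPKM in BAT, 1.49, 1.54, 1.93 and 1.39 FPKM in iWAT and 0.384, 1.16, 1.3 and 1.11 FPKM in eWAT. BAT libraries 3 and 4 lay within the iWAT range, and the BAT difference from iWAT did not pass (log2 difference 0.38, interval -0.01 to 0.78, limma adjusted p = 0.1). It passed without BAT vehicle library 3 (0.51, adjusted p = 0.0394) or library 4 (0.50, 0.0414), and in the auranofin libraries (0.60, 0.0016). Against eWAT Prdm16 was higher in BAT (0.79, SE 0.19, adjusted p = 0.00212), a call that did not hold on the TPM scale (0.34, 0.147). In vehicle liver it had 0.0375 to 0.0785 FPKM, and BAT was 40.8 times that level in mean FPKM (log2 difference 1.67, SE 0.19, limma adjusted p = 8.93e-07).

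Zic1, a zinc finger transcription factor used as a marker of classical brown rather than beige adipocytes, was low even in BAT. It had 27 to 78 reads per vehicle BAT library (0.347 to 1.01 FPKM), 0 to 11 in vehicle iWAT and none in any eWAT library. It fell under the filter of a mean of 0.5 FPKM over the libraries of the tissue fit, and without that filter its BAT level was higher than that of iWAT (log2 difference 0.68, limma adjusted p = 0.000101). Zic4, which overlaps Zic1 on the opposite strand, averaged 0.117 FPKM in BAT.

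Elovl3 and Kcnk3 are effector genes often used to mark brown fat, and neither was confined to it. Elovl3, an elongase of very long-chain fatty acids, had 37.4, 41.1, 89.1 and 19.3 FPKM in vehicle BAT, 3.38, 3.16, 2.13 and 4.33 FPKM in iWAT, 0.335, 0.644, 0.604 and 0.188 FPKM in eWAT and 295, 368, 439 and 369 FPKM in liver. Liver was the highest tissue without overlap, and BAT was 7.87 times below it in mean FPKM (log2 difference -3.14, SE 0.32, limma adjusted p = 2.86e-07). BAT was 14.4 times iWAT (3.31, SE 0.32, 5.65e-07). Kcnk3, an acid-sensitive leak potassium channel, had 58.7, 45.4, 58.5 and 49.5 FPKM in vehicle BAT, 18.8 to 26.4 in iWAT, 4.27 to 12.3 in eWAT and 0.0569 to 0.207 in liver. The ranges of the 4 tissues did not overlap, and both neighbouring steps among the fat depots passed the test: BAT against iWAT 1.23 (SE 0.25, adjusted p = 0.000724), and eWAT against iWAT -1.48 (SE 0.25, 0.00023). In the auranofin libraries the eWAT against iWAT difference of Kcnk3 did not pass (-0.63, adjusted p = 0.0877).

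**Figure D2:**
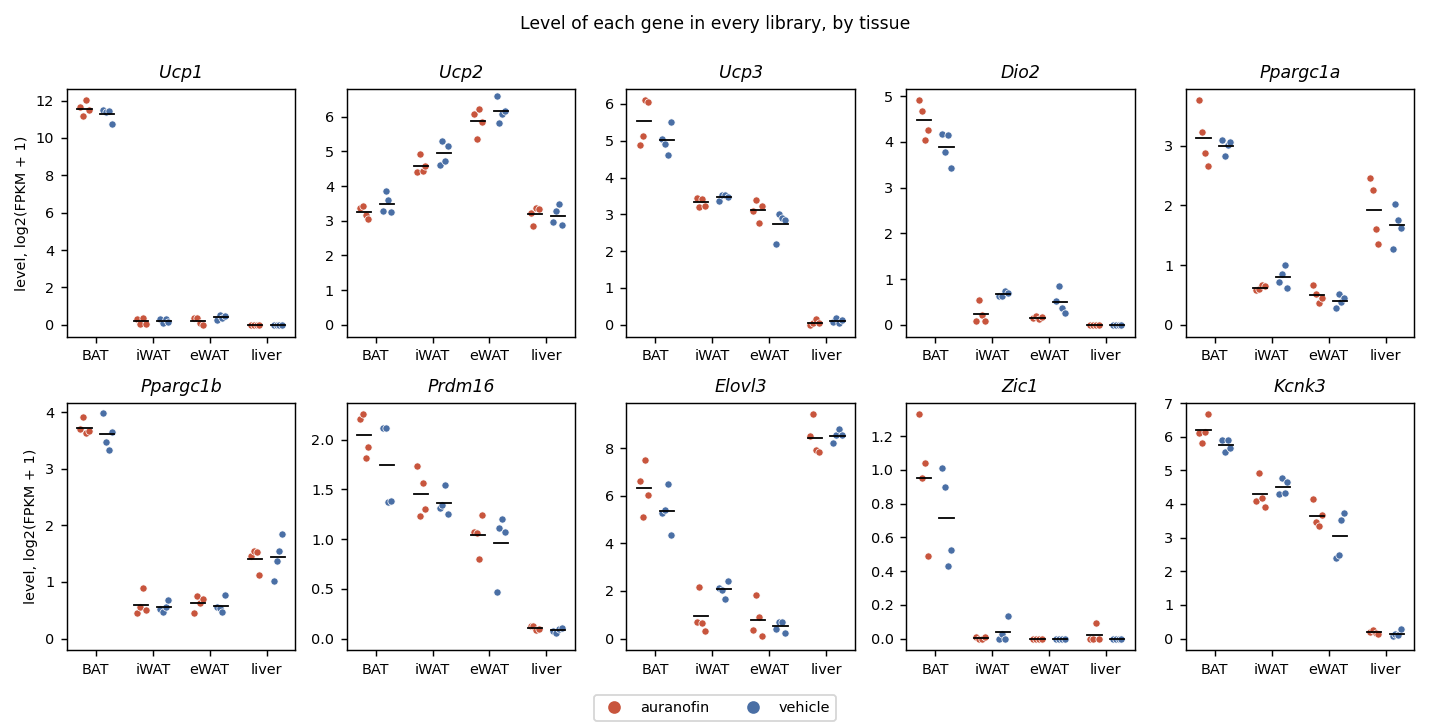
Each point is 1 library, as log2(FPKM + 1) on its own linear axis for each gene, with auranofin left of vehicle within each tissue and bars at the group means. Ucp1 stands above 10 in BAT and under 1 in all other libraries, Ucp2 climbs to its highest values in eWAT, and Elovl3 to its highest in liver.

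Counted over the tests, 9 of the 10 genes passed the filter in the vehicle libraries, Ucp1 and Dio2 only through BAT, so that these 2 had to differ. In BAT against iWAT, 7 were higher and 1 (Ucp2) lower, where 24.4% of 14339 genes were higher and 25.7% lower. BAT against eWAT gave 8 higher and 1 (Ucp2) lower, with 25.3% of all genes higher and 27.8% lower. BAT against liver gave 7 higher and 1 (Elovl3) lower, with 31.8% higher and 31.4% lower overall. The median log2 difference of the tested members was 2.20 for BAT against iWAT and 2.71 for BAT against eWAT, against -0.02 and -0.01 over all genes. Between the white depots, eWAT against iWAT gave 1 higher (Ucp2) and 4 lower (Ucp3, Ppargc1a, Elovl3 and Kcnk3), where 21.4% of genes were higher and 24.8% lower. That count rested on the vehicle libraries and on the scale, being 1 in the auranofin libraries and 3 on the TPM scale. The Ppargc1a call among them (log2 difference -0.40, SE 0.14, limma adjusted p = 0.026) was also lost without iWAT vehicle library 2 (0.0608) or 3 (0.0793) or without eWAT vehicle library 1 (0.0711). Set against liver, iWAT had 5 higher and 3 lower (33.7% and 35.8% of all genes) and eWAT 6 higher and 3 lower (34.5% and 37.4%), with Ppargc1a, Ppargc1b and Elovl3 the lower ones in each. The Ucp1 call for eWAT against liver rested on 45 reads in 4 eWAT libraries.

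The counts of wider pathway lists stand beside 24.4% of all genes higher and 25.7% lower in BAT than in iWAT. Of 30 brown and beige adipocyte genes, 25 were tested, and 20 were higher and 2 lower in BAT than in iWAT (median log2 difference 2.56), 1 of them (Cpt1b) having passed the filter only through BAT. Cidea, a lipid droplet protein, averaged 1431 FPKM in vehicle BAT and 18.7 in iWAT, and Cpt1b, the muscle-type carnitine palmitoyltransferase, 5.21 and 0.0196 FPKM. Lhx8 (0.687 FPKM in vehicle BAT and 3.41 in iWAT) and Epsti1 (0.88 and 2.92 FPKM) of this list had the reverse order. Of 33 regulators of Ucp1 transcription and mitochondrial biogenesis, 32 were tested, 18 being higher and 6 lower in BAT than in iWAT (median 0.32). Ppara, a nuclear receptor of fatty acid oxidation, averaged 19.6 FPKM in BAT and 0.511 in iWAT, while Nrip1 averaged 1.76 and 6.69 FPKM. Among 18 genes of beta-adrenergic input and lipolysis, 7 were higher and 3 lower (median 0.31). The receptor gene Adrb3 averaged 140 FPKM in BAT and 14.6 in iWAT, while Adcy5 averaged 2.20 and 35.2 FPKM. The thyroid hormone list had 5 higher and 1 lower of 11 tested. Dio1, the deiodinase of liver, had no read in vehicle BAT and averaged 130 FPKM in liver, the reverse of Dio2. The relatives of the members had 4 higher and 3 lower of 14 tested, shares near those of all genes, and 1 of them (Mecom) passed the filter only through BAT. Genes of heat production without UCP1 had 4 higher and 1 lower of 9. Within the elongase family, Elovl6 averaged 84.4 FPKM in BAT and 4.98 in iWAT, Elovl5 averaged 22.6 and 19.3, and Elovl2 averaged 238 FPKM in liver against 0.0187 in BAT.

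For the 8 members with a group mean of 5 FPKM or more, the protein-coding genes nearest in pattern were found over the 8 groups among 8331 genes, as the share of the level that would have to move between groups to make the patterns equal (0 for identical patterns). Nearest to Ucp1 were Lgr6 (0.00691), Fabp3 (0.0102) and Cox7a1 (0.0214). Fabp3, a fatty acid binding protein, averaged 1330 FPKM in vehicle BAT, 8.14 in iWAT, 0.985 in eWAT and 0.0989 in liver. Dio2 was nearest to Cidea and Cox8b (0.0357 each) and Sorcs2 (0.0396). Ppargc1a was nearest to Ddo (0.0337), Nrtn (0.0522) and Acadvl (0.0651), and Ppargc1b to Elovl6 (0.0170), Acly (0.0480) and Mapt (0.0531). Acly and Elovl6 encode enzymes of fatty acid synthesis. Ucp3 was nearest to Fbp2 (0.0389), Sh2b2 (0.0404) and Ak1 (0.0493), and Ak1 (0.0418) also stood near Kcnk3, after Slc25a35 (0.0300) and Igsf21 (0.0390). Nearest to Ucp2 were Sh3bgrl3 (0.0310), Pld3 (0.0454) and Ms4a6b (0.0465), and nearest to Elovl3 were Aspg (0.0369), Car14 (0.0391) and Tmem82 (0.0462). With 8 group means per gene, these values describe and test nothing.

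Within BAT, auranofin libraries were set against vehicle libraries for each gene, and no member passed the threshold. All 10 were tested, and 0.0230% of 13067 genes passed: Timp1, Csf2rb and Iigp1, all lower with auranofin. At an unadjusted p under 0.05, 2 of the 10 members (Dio2 and Kcnk3) and 11.2% of all genes stood. The log2 changes were above 0 for 9 members, below 0 for Ucp2, with a median of 0.31 against 0.02 over all genes, and on the TPM scale Ppargc1b also fell below 0 (-0.02).

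Dio2 had 29.1, 24.8, 15.4 and 18.1 FPKM in auranofin BAT, against 17.0, 12.7, 16.9 and 9.82 FPKM in vehicle BAT. Auranofin libraries 1, 2 and 4 lay above every vehicle library, and library 3 lay within their range. The log2 change was 0.59 (SE 0.23, limma adjusted p = 0.4). Kcnk3 had 68.6, 55.2, 69.0 and 101 FPKM in auranofin BAT, against 58.7, 45.4, 58.5 and 49.5 FPKM in vehicle BAT. Again 3 of 4 auranofin libraries lay above every vehicle library (log2 change 0.44, SE 0.18, limma adjusted p = 0.424). Without single libraries the Dio2 change ran between 0.44 and 0.73 and the Kcnk3 change between 0.27 and 0.56, with adjusted p of 0.146 or more.

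The uncoupling proteins overlapped between the groups in BAT. Ucp1 averaged 3129 ± 786 FPKM with auranofin and 2506 ± 552 with vehicle (SD, n = 4 each). Its highest value was in auranofin library 3 and its lowest in vehicle library 4 (log2 change 0.32, interval -0.23 to 0.87, limma adjusted p = 0.647). Ucp3 had 28.4, 34.3, 67.5 and 65.5 FPKM with auranofin, against 31.9, 29.2, 23.3 and 44.3 with vehicle. Libraries 3 and 4 of auranofin stood above all others and libraries 1 and 2 within the vehicle range (log2 change 0.53, SE 0.31, adjusted p = 0.547). Ucp2 averaged 8.63 ± 1.2 FPKM with auranofin and 10.5 ± 2.40 with vehicle (log2 change -0.24, SE 0.16, adjusted p = 0.597). The macrophage marker mean was 2.48, 3.24, 2.57 and 2.62 in the auranofin BAT libraries, against 3.14, 3.86, 3.27 and 3.48 in the vehicle ones, and its part in the Ucp2 values was not tested.

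Elovl3 spread most within the groups. It had 98.2, 33.1, 180 and 64.0 FPKM with auranofin, against 37.4, 41.1, 89.1 and 19.3 with vehicle, an overlap of 2 auranofin libraries with the vehicle range (log2 change 0.94, SE 0.56, limma adjusted p = 0.556). Prdm16 averaged 3.18 ± 0.624 FPKM with auranofin and 2.48 ± 1.01 with vehicle (0.30, adjusted p = 0.612), and Zic1 0.979 ± 0.455 and 0.666 ± 0.324 FPKM (0.24, 0.684). Ppargc1a averaged 8.18 ± 3.24 FPKM with auranofin and 7.01 ± 0.667 with vehicle (0.14, 0.831). That value rested on auranofin library 1, at 12.7 FPKM, and was -0.08 without it. Ppargc1b averaged 12.3 ± 1.24 and 11.4 ± 2.51 FPKM (0.11, 0.786). The highest values of different genes fell in different auranofin libraries: library 1 for Dio2, Ppargc1a and Zic1, library 3 for Ucp1, Ucp3 and Elovl3, and library 4 for Kcnk3.

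**Figure D3:**
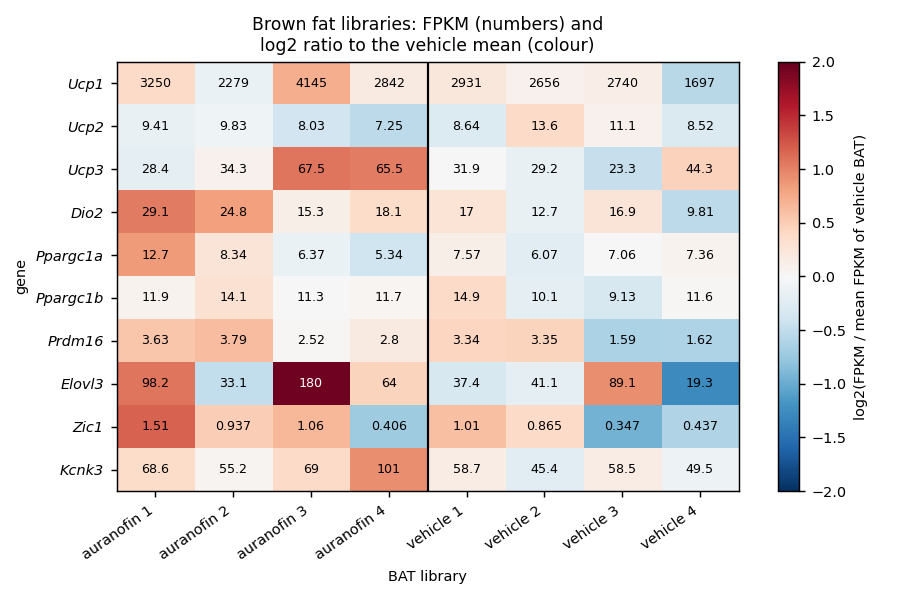
Heat map of the 10 genes (rows) in the 8 BAT libraries (columns, auranofin left of vehicle), with the FPKM printed in each cell and the colour giving the log2 ratio to the vehicle mean, linear and capped at 2 either way. Auranofin library 3 has the highest Elovl3 (180 FPKM) and Ucp1 (4145 FPKM), and vehicle library 4 the lowest Elovl3 (19.3 FPKM).

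None of the wider lists held a gene that passed in BAT. Of the brown and beige list, 26 were tested, 20 with log2 changes above 0 (median 0.16 against 0.02 over all genes). Cidea averaged 2050 ± 370 FPKM with auranofin and 1431 ± 99.6 with vehicle (change of 0.50 on the log2 scale, SE 0.17, limma adjusted p = 0.331), and its groups did not overlap, which held for 5.33% of all genes. Clstn3, known from thermogenic adipocytes for its part in lipid droplet form, averaged 71.3 ± 17.5 and 47.5 ± 8.31 FPKM (0.56, 0.351). The smallest p-values in the other lists belonged to Pprc1, a relative of the Ppargc1 coactivators (2.78 ± 0.398 FPKM with auranofin and 4.03 ± 0.639 with vehicle, adjusted p = 0.282), Wsb1, part of the ubiquitin ligase that acts on the Dio2 product (4.93 ± 0.945 and 7.32 ± 1.23 FPKM, 0.282), Thrsp, a thyroid hormone responsive gene of lipogenesis (1455 ± 256 and 995 ± 178 FPKM, 0.332), and Cebpd (3.33 ± 1.23 and 5.58 ± 1.43 FPKM, 0.38). Nfia, Adcy5, Lipe, Slc25a4, Alpl and Gatm completed the pairs with the smallest p, with adjusted p between 0.434 and 0.519. As for Cidea, the groups did not overlap for Nfia and Lipe, higher with auranofin, and for Wsb1, lower with it. Genes named for a small p have separated groups more often than all genes, so the 5.33% is no even reference. The nearest libraries of the groups, auranofin first, had 1525 and 1523 FPKM for Cidea and 257.4 and 257.1 for Lipe. For Nfia they had 8.68 and 8.50 FPKM, and for Wsb1 6.20 and 6.24.

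In iWAT no member passed either, but the values ran mostly the other way. Of 6 members tested, 5 had log2 changes below 0 (median -0.21 against -0.02 over all genes), Ucp3 and Kcnk3 turning to 0.12 and 0.03 on the TPM scale. None of 13164 genes passed (0%), and 22.0% had an unadjusted p under 0.05. Long and short genes differed, with a median change of -0.52 for protein-coding genes of up to 1000 bases and 0.09 for those over 6000. The other fat depots showed the reverse order, with medians of 0.175 and -0.0197 in BAT and 0.295 and -0.087 in eWAT. Genes of 1000 to 2000 bases, the class of Ucp1 and Elovl3, had a median of 0.103 in BAT and -0.301 in iWAT. Liver differed little (-0.0167 and -0.00457).

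Dio2 was low in both white depots, and in each the auranofin libraries lay below the vehicle ones. In iWAT it had 0.0601, 0.456, 0.168 and 0.0539 FPKM with auranofin (8, 50, 23 and 7 reads), against 0.536, 0.539, 0.668 and 0.611 FPKM with vehicle (58, 59, 67 and 72 reads). All auranofin libraries lay below all vehicle libraries. In eWAT it had 0.103, 0.138, 0.0833 and 0.128 FPKM with auranofin (11, 16, 11 and 16 reads), against 0.437, 0.810, 0.281 and 0.193 FPKM with vehicle (61, 98, 38 and 24 reads). Again the groups did not overlap. Of all genes tested, which are better expressed and leave out Dio2, 2.41% in iWAT and 3.95% in eWAT had auranofin libraries all below the vehicle ones. At these levels Dio2 fell under the filter, and without it the log2 change was -0.43 in iWAT (limma adjusted p = 0.362) and -0.34 in eWAT (adjusted p = 0.632), so neither passed the test over all genes.

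Elovl3 in iWAT had 0.643, 3.55, 0.569 and 0.240 FPKM with auranofin, against 3.38, 3.16, 2.13 and 4.33 with vehicle. Auranofin libraries 1, 3 and 4 lay below every vehicle library, and library 2 lay within the vehicle range. The log2 change was -1.10 (SE 0.37, limma adjusted p = 0.204). Without auranofin library 2 it was -1.50 and passed (adjusted p = 0.00144), as did Kcnk3 (-0.45, 0.0367), in a fit that called 4819 genes. Over the same libraries the brown adipocyte marker mean was 3.74, 4.45, 3.58 and 3.16 in the auranofin libraries, against 4.54, 4.33, 4.41 and 4.38 in the vehicle libraries, with library 2 again within the vehicle range. The neuron and Schwann cell marker mean was 1.27, 0.287, 1.40 and 1.83 with auranofin, against 0.270, 0.150, 0.716 and 0.258 with vehicle. The endothelial marker mean was 4.41, 3.51, 4.61 and 4.29 with auranofin, against 3.65 to 3.87 with vehicle, library 2 again lying apart from its group. The hepatocyte marker mean was 1.42 to 1.68 with auranofin, against 4.64, 1.91, 1.35 and 2.51 with vehicle. The part of any of these in the Elovl3 and Dio2 values was not tested.

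The other members did not pass in iWAT either. Ucp2 averaged 23.2 ± 4.24 FPKM with auranofin and 30.5 ± 7.40 with vehicle (change of -0.37 on the log2 scale, SE 0.19, limma adjusted p = 0.265), Ucp3 averaged 9.07 ± 0.890 and 10.1 ± 0.551 FPKM (-0.14, 0.37), and Kcnk3 averaged 19.2 ± 7.02 and 22.1 ± 3.83 FPKM (-0.24, 0.513). Ppargc1a averaged 0.540 ± 0.0406 and 0.750 ± 0.204 FPKM (-0.18, 0.36), and Prdm16 averaged 1.77 ± 0.453 and 1.59 ± 0.235 FPKM (0.09, 0.689). Under the filter, Ppargc1b had 0.524 ± 0.223 FPKM with auranofin and 0.475 ± 0.0950 with vehicle, Zic1 had 0 to 1 read per library with auranofin and 0 to 11 with vehicle, and Ucp1 had 0.147 ± 0.136 FPKM with auranofin and 0.158 ± 0.0940 with vehicle. Of 21 brown and beige list genes tested in iWAT, 16 had log2 changes below 0 (median -0.43), and none passed.

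**Figure D4:**
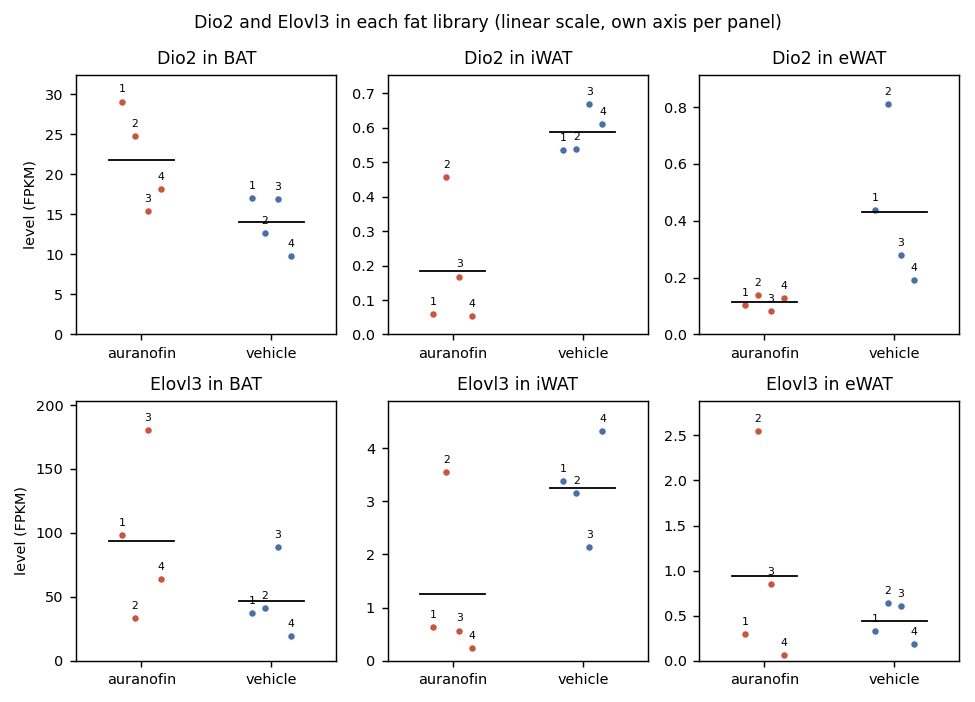
FPKM of Dio2 (top) and Elovl3 (bottom) in each library of BAT, iWAT and eWAT, on linear axes that start at 0 and differ between panels, with auranofin left of vehicle, library numbers above the points and bars at the group means. For Dio2, 3 of 4 auranofin libraries lie above all vehicle libraries in BAT, and all 4 lie below them in iWAT and in eWAT, and Elovl3 in iWAT auranofin library 2 (3.55 FPKM) stands apart from the other 3.

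In eWAT, 6 members were tested and none passed, nor did any of 13847 genes (0%, with 11.4% at an unadjusted p under 0.05). Kcnk3 had 16.8, 9.96, 9.07 and 11.7 FPKM with auranofin, against 4.27, 4.56, 10.6 and 12.3 with vehicle (change of 0.61 on the log2 scale, SE 0.34, limma adjusted p = 0.432), the 2 low values being those of vehicle libraries 1 and 2. These libraries also had the lowest white adipocyte marker means of the vehicle group, 7.63 and 7.96 against 8.55 and 8.71. With auranofin that mean was 9.27, 9.27, 8.79 and 8.67, so it was higher in 3 of 4 auranofin libraries than in any vehicle library. Without vehicle libraries 1 and 2 the log2 change was 0.013 for Kcnk3 and 0.24 for Ucp3. Ucp3 averaged 7.81 ± 1.57 FPKM with auranofin and 5.83 ± 1.55 with vehicle (0.38, adjusted p = 0.433), and Ucp2 averaged 59.3 ± 14.6 and 72.1 ± 17.4 FPKM (-0.28, 0.558). The macrophage marker mean was 5.19 to 6.14 with auranofin and 5.95 to 7.09 with vehicle. Elovl3 had 0.292, 2.55, 0.855 and 0.0624 FPKM with auranofin, against 0.335, 0.644, 0.604 and 0.188 with vehicle (0.28, 0.679). Its 2 highest values fell in the libraries with the highest hepatocyte marker means, auranofin libraries 2 (5.34) and 3 (3.77), and the part of liver transcripts in them was not tested. Prdm16 (0.08, adjusted p = 0.827) and Ppargc1b (0.05, 0.838) overlapped between groups. Under the filter, Ucp1 had 0.165 ± 0.161 FPKM with auranofin and 0.313 ± 0.116 with vehicle, and Ppargc1a had 0.419 ± 0.132 and 0.323 ± 0.0915 FPKM.

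In liver, 4 members were tested, and none of them and none of 13122 genes passed (0%, with 6.04% at an unadjusted p under 0.05). Elovl3 had 364, 688, 240 and 225 FPKM with auranofin, against 295, 368, 439 and 369 with vehicle, so that 1 auranofin library lay above the vehicle range, 2 below it and 1 within it (log2 change -0.09, interval -0.82 to 0.63, limma adjusted p = 0.973). Ppargc1a, a driver of gluconeogenesis in liver, had 4.48, 3.77, 2.05 and 1.56 FPKM with auranofin, against 1.41, 3.05, 2.37 and 2.07 with vehicle (0.26, SE 0.26, adjusted p = 0.872). Ucp2 averaged 8.23 ± 1.43 and 7.99 ± 1.75 FPKM (0.04, 0.974) and Ppargc1b 1.68 ± 0.351 and 1.79 ± 0.664 FPKM (-0.03, 0.982). The other members were near 0 in liver: Prdm16 had 6 to 11 reads per library with auranofin and 4 to 8 with vehicle, Kcnk3 had 5 to 9 and 3 to 9, Ucp3 had 0 to 4 and 1 to 5, and Zic1 had 4 reads in 1 auranofin library and none in vehicle liver.

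**Figure D5:**
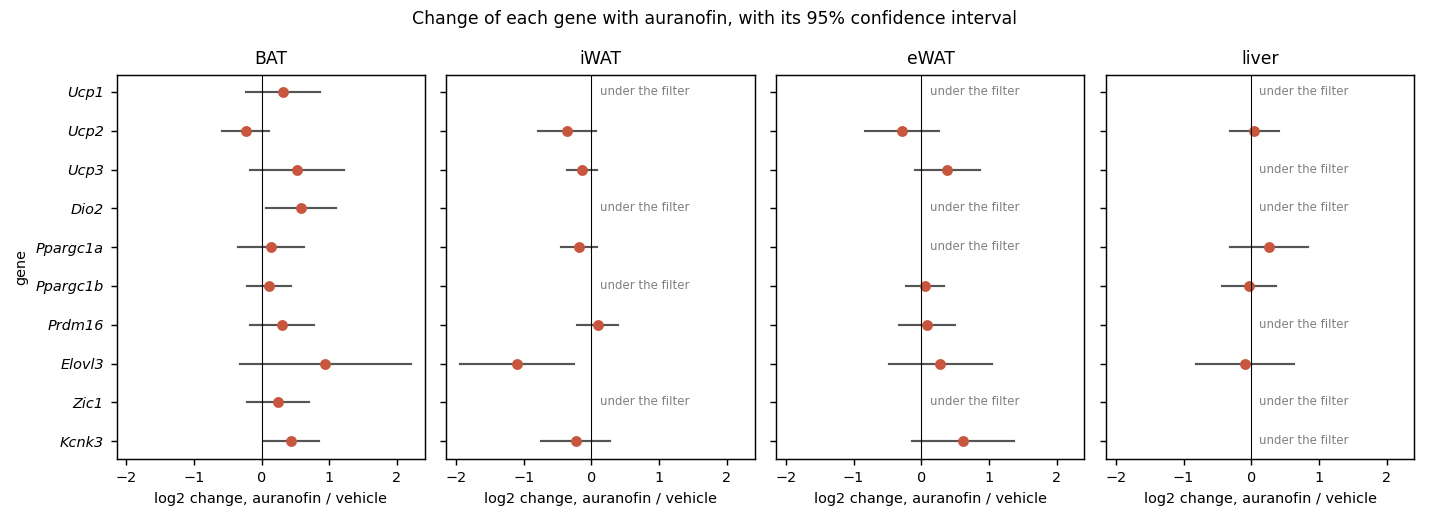
Log2 change (auranofin over vehicle, log2(FPKM + 1) scale, points) with its 95% confidence interval (lines) for each gene in the 4 tissues, with genes under the filter marked. The points of BAT lie right of 0 for 9 of 10 genes, and no change passed the adjusted threshold in any tissue.

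The auranofin changes of different tissues were set against each other in 4 interaction contrasts, and no member passed in any of them. For BAT against iWAT 9 members were tested, Ucp1, Dio2 and Ppargc1b passing the filter only through BAT. Of all 13372 genes 0.0224% passed, with negative differences (Irgm2, Csf1 and Fosl1). Dio2 changed by 1.02 more in BAT than in iWAT (SE 0.27, limma adjusted p = 0.107), Elovl3 by 2.03 (SE 0.72, adjusted p = 0.138) and Kcnk3 by 0.67 (SE 0.30, adjusted p = 0.201). At an unadjusted p under 0.05 these were 3 of 9 members and 23.1% of all genes. Without iWAT auranofin library 2 all 3 passed (Dio2 1.13, adjusted p = 0.00841, Elovl3 2.44, 0.0172, and Kcnk3 0.89, 0.0166), where 3664 genes did. Against eWAT, Dio2 changed by 0.93 more in BAT (SE 0.28, limma adjusted p = 0.777), 1 of 9 members at an unadjusted p under 0.05 beside 5.84% of 13842 genes, of which none passed (0%). Against liver the difference was 0.59 (SE 0.25, limma adjusted p = 0.469), the same as the BAT change since liver had no Dio2 reads, and 0.0215% of 13936 genes passed (Timp1, Csf2rb and Dok2), with 9.34% at an unadjusted p under 0.05. In the eWAT contrast Ucp1, Dio2 and Ppargc1a passed the filter only through BAT. In the liver contrast Ucp1, Ucp3, Dio2, Prdm16 and Kcnk3 did. Between eWAT and iWAT, where 0% of 13670 genes passed and 23.5% had an unadjusted p under 0.05, Elovl3 differed by 1.37 (SE 0.54, limma adjusted p = 0.178) and Ucp3 by 0.52 (SE 0.24, adjusted p = 0.201). The contrasts share libraries: the BAT libraries enter 3 of the 4 and the iWAT and eWAT libraries 2 each.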

How the data were processed

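RNA was sequenced in 32 libraries, 4 per tissue and treatment, grouped by the sample labels, with none left out. The authors deposited FPKM values for 54532 genes. Tools listed in the submitters' processing notes, with no role given, were DESeq2 1.20.0, featureCounts 1.5.0-p3, STAR 2.6.1d and CASAVA, and the build was mm10, and the kit was non-stranded per the labels' protocols. Multiplied by gene length, the values gave whole reads within 0.1 read in 100% of cases, and these read numbers are quoted. Each auranofin comparison was fitted within its tissue and the tissue comparison over the 16 vehicle libraries, on log2(FPKM + 1), with limma 3.58.1 (R 4.3.3, intensity trend). Genes with a mean of 0.5 FPKM or more over the libraries in the fit were tested, and p-values were adjusted by Benjamini-Hochberg over all of them (threshold 0.05). Alternatives were another pseudocount (0.1), no filter or one of 2 FPKM, the TPM scale, voom on the rebuilt reads, quantile normalisation, a replicate block, weights for sample quality, a fit with no intensity trend, removal of a gene-length trend, 1 fit of all libraries, the auranofin libraries for tissues, and leaving out libraries. Ratios against a group with no read took 3 reads over the group as its floor, which covers counting error only. The scripts were tested on simulated data. The members and lists were chosen with earlier results of these data known. All 10 members were to be named within each tissue, those under the filter as levels or reads, and list genes are named where they had the smallest p in BAT, at most 2 per list. Tissue levels of further list genes were picked after their values were seen. For interactions, values are given for members with an unadjusted p under 0.05. Elovl3 had other coordinates in the table than in GENCODE release M21. Figures were drawn with matplotlib 3.10.9 (Python 3.11.15).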

Additional observations from a re-analysis of the deposited data

Results flagged for a closer look

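Elovl3 in iWAT auranofin library 2 stood at 3.551 FPKM, far from the other 3 auranofin libraries of that depot, which had 0.240 to 0.643 FPKM. It was 1 of 53 groups of 4 libraries checked for a sample far from the rest, and chance alone marks about 1 group in 20. The same library had 0.456 FPKM of Dio2 and 29.6 FPKM of Kcnk3, each the highest of its group. It also stood apart over all genes, with a summed FPKM of 368676 and 19949 genes with reads. The other 3 auranofin libraries of iWAT had sums of 259520 to 275614 and 21667 to 21924 genes. Vehicle iWAT libraries had sums of 340536 to 369437 and 19839 to 21368 genes.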

How the results depend on the processing

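The number of members called stayed within 1.5 times the reported one in most settings tried. With sample quality weights it was 3 instead of 0 in iWAT (Ucp2 -0.53, Elovl3 -1.42, Kcnk3 -0.42), 3 instead of 0 for the BAT minus iWAT change (Dio2 0.97, Elovl3 2.44, Kcnk3 0.88) and 1 instead of 0 for eWAT minus iWAT (Elovl3 1.37). For eWAT against iWAT in vehicle mice it was 3 instead of 5 on the TPM scale and 1 in the auranofin libraries. Leaving out single libraries, it ran from 0 to 2 in iWAT, 0 to 3 for BAT minus iWAT and 0 to 1 for eWAT minus iWAT, the upper ends all without iWAT auranofin library 2. The cause was not tested.

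Signs turned for some changes, none of which passed as reported. On the TPM scale these were Ppargc1b in BAT (-0.0174) and, in iWAT, Ucp3 (0.12) and Kcnk3 (0.033). Kcnk3 in iWAT, -0.24 as reported, passed as lower with quality weights (-0.42, limma adjusted p = 0.035) and without auranofin library 2 (-0.45, 0.0367). The median of all genes on the TPM scale was -0.08 in BAT, 0.20 in iWAT, -0.11 in eWAT and -0.02 in liver. As reported these medians were 0.02, -0.02, 0.003 and -0.008. On the TPM scale they ran from -0.61 to 0.85 in the tissue comparisons and from -0.33 to 0.04 in the interactions. With the gene-length trend removed the sign of Prdm16 in iWAT turned (-0.0053). With quality weights the signs turned for Prdm16 (-0.00086) and Elovl3 (-0.0348, 0.28 as reported) in eWAT, and for Ucp2 (-0.0069), Ppargc1b (0.0519) and Elovl3 (0.14) in liver. Prdm16 in eWAT gave -0.0926 without vehicle libraries 1 and 2, and Ppargc1b for eWAT against iWAT in vehicle mice gave -0.10 after quantile normalisation. Over left-out libraries the ranges that crossed 0 were -0.0754 to 0.29 for Ppargc1a in BAT, -0.0030 to 0.17 for Prdm16 in iWAT, -0.0828 to 0.16 for Prdm16 in eWAT, -0.0441 to 0.16 for Ucp2, -0.18 to 0.10 for Ppargc1b and -0.43 to 0.10 for Elovl3 in liver, and -0.0388 to 0.067 for Ppargc1b in eWAT against iWAT.

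Counts over all genes moved more: 0 to 208 for BAT, 0 to 6095 for iWAT, 0 to 1008 for eWAT, 0 to 3 for liver and 1537 to 7991 for eWAT against iWAT, against 3, 0, 0, 0 and 6625 as reported, and for the interactions 0 to 4411, 0 to 3, 0 to 170 and 0 to 4083. Correlations of same-numbered libraries ran from -0.40 to 0.43, and no group pair of 16 had all over 0.1. The same number was the closest match for 0 to 3 of the 4 libraries, depending on the group pair. These values cannot settle whether same-numbered libraries of different tissues came from the same mice, which the labels do not say. A replicate block left the members called at 0 in each auranofin comparison and interaction and at 8, 9, 8, 5, 8 and 9 in the tissue comparisons. With 4 libraries a group, genes with few reads, such as Zic1 in BAT (27 to 101 reads per library) and Dio2 in the white depots (7 to 98), were the least precisely measured.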
